A study of Mus musculus with 3 samples.

Results

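Interferon-response macrophages of the mouse heart were described here as 288 cells of 6440 that passed the filter in 2 single-cell RNA libraries, and 8207 cells passed it in all 3 libraries of the study. The cells were selected on their own reads: a cell was a member when it had at least 1 UMI (unique molecular identifier, a tag that marks 1 captured RNA molecule) of 6 or more of the 10 interferon-induced genes Ifit1, Ifit2, Ifit3, Isg15, Rsad2, Irf7, Usp18, Oasl1, Cmpk2 and Cxcl10. They were set against the low cells of the same library, those with 2 or fewer of the 10 genes. Of the 4673 cells of the day 11 library, 181 were members and 3848 were low cells. In the steady-state library 107 of 1767 cells were members and 1164 were low cells. The other library, used as a reference, had 15 members and 1683 low cells among 1767 cells.

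The study asked how cardiac macrophages differ between infarcted and uninjured hearts. The day 11 library (MF_MI) held macrophages from hearts taken 11 days after myocardial infarction, and the steady-state library (MF_SS) held macrophages from uninjured hearts. Both came from C57BL/6 mice of genotype Cx3cr1CreER-YFP/+:R26Td/+, in which the Cx3cr1 promoter drives an inducible Cre and YFP, and Cre activity switches on tdTomato at Rosa26. The reference library (MF_DC) came from wild-type C57BL/6 mice without injury and mixed macrophages with dendritic cells (DCs). All mice were given as aged 8-12 wks, and how many went into each library is not stated. All hearts were digested with the transcription inhibitor flavopiridol present. Macrophages were sorted as live cells positive for CD45, CD64 and CD11b, and DCs as CD64-negative and CD11c-positive, with MHC class II at an intermediate or high level. Each group is 1 library, so no spread between animals was available, no test was made, and the 95% intervals cover counting error only.

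Interferons are secreted proteins that cells release on sensing viral or displaced nucleic acids. Type I interferons bind the receptor of Ifnar1 and Ifnar2, and the kinases Jak1 and Tyk2 then activate transcription factors that join IRF9 and bind the interferon-stimulated response element (ISRE) before antiviral genes. Interferon-gamma acts on a different element, the gamma-activated site (GAS). In infarcted mouse hearts, macrophages that take up DNA of dying cells are known to enter such a state through the sensor cGAS and the transcription factor IRF3.

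The libraries held 45177529, 23711707 and 14388327 UMIs (day 11, steady state, macrophage and DC). Members were deeper than low cells, with a median of 12293 against 7816.5 UMIs per cell at day 11, 20318 against 9180.5 at steady state and 8164 against 7144 in the macrophage and DC library. A rule that asks for a UMI finds more members in deep cells, and the steady-state library was the deepest. The median mitochondrial share was 2.09% in members and 1.99% in low cells at day 11, and 3.07% and 2.98% at steady state. The day 11 and steady-state libraries shared 8 cell barcodes, none of them a member's. The day 11 library shared 11 with the macrophage and DC library, 2 of them with a member on one side.

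The macrophage name held for members of both macrophage libraries. Of the 181 day 11 members, 180 had a UMI of at least 3 of the macrophage genes C1qa, C1qb, C1qc, Adgre1, Fcgr1 and Mertk, and all 107 steady-state members did. Among low cells 99.6% and 99.9% did. The complement gene C1qb stood at 7009 CPM (counts per 1e+06 UMIs of the summed cells) in day 11 members, against 7310.5 CPM in day 11 low cells. At steady state it stood at 6808 CPM in members and 7138 CPM in low cells. In the macrophage and DC library 10 of the 15 members met this count. With Csf1r and Cd68 added, the median member there had 928 CPM of these genes. The median member had 21993 CPM at day 11 and 22556 CPM at steady state. Nearly all low cells met the count too, so it is a weak one. Meeting it does not show that the 10 cells are macrophages.

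Members made up 3.87% of the day 11 cells (exact binomial interval 3.34 to 4.47), 6.06% of the steady-state cells (4.99 to 7.27) and 0.849% of the macrophage and DC cells (0.476 to 1.40). When every cell was thinned at random to 3000 UMIs, so that depth was equal, the shares were 1.35% at day 11 (1.04 to 1.73; 62 cells), 0.679% at steady state (0.351 to 1.18; 12 cells) and 0.627% in the macrophage and DC library (0.301 to 1.15; 10 cells). The order of the day 11 and steady-state shares thus turned with depth, and at equal depth their intervals overlapped slightly. Thinning left out 84 day 11 cells and 172 macrophage and DC cells with fewer UMIs. At a lower bar of 3 genes the thinned shares were 5.27% at day 11 and 5.83% at steady state. After thinning, 34.4% of the day 11 members kept 6 genes, and 11.2% of the steady-state members did.

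**Figure D1:**
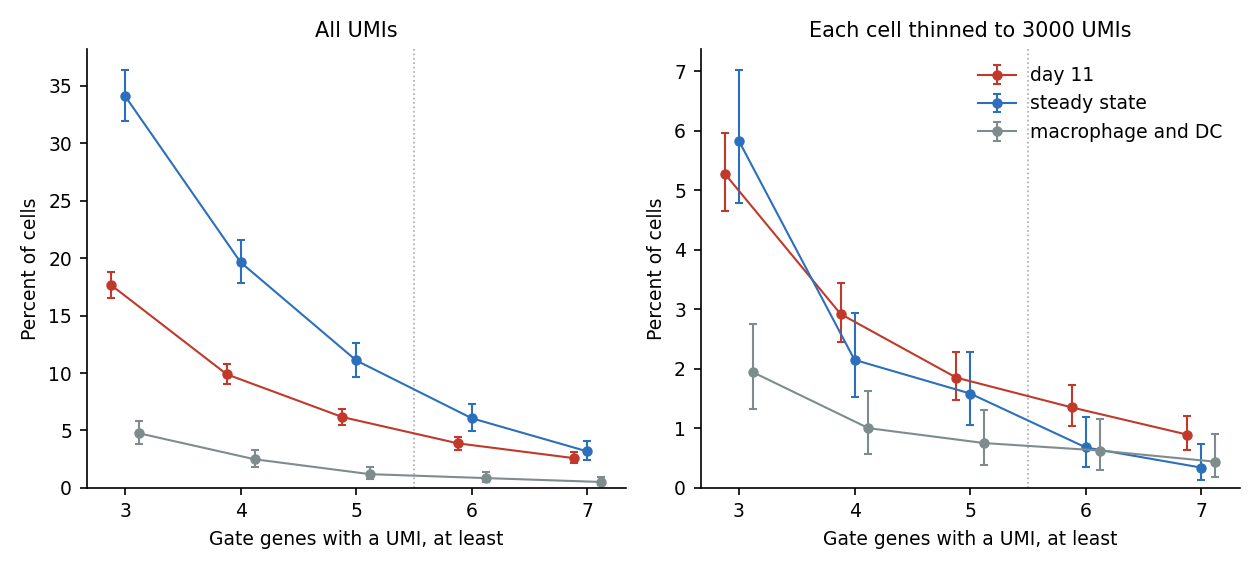
Percent of cells (vertical) with a UMI of at least 3 to 7 of the 10 genes of the rule, called gate genes (horizontal), in the 3 libraries, at full depth (left) and after thinning to 3000 UMIs per cell (right); bars are exact 95% intervals for counting error and the dotted line marks the rule. At 6 genes and full depth the steady-state share (6.06%) lies above the day 11 share (3.87%), and at equal depth it lies below it (0.679% and 1.35%).

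A depth-free reading of the same genes is their summed level over all cells of a library. It was 359 CPM for day 11, 344 CPM for steady state and 170 CPM for the macrophage and DC library. The whole libraries at day 11 and steady state thus held the 10 transcripts at close levels. At day 11 the members, with 5.41% of the UMIs, held 47.7% of the UMIs of the 10 genes. At steady state the members, with 9.56% of the UMIs, held 34.1% of them.

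The 10 genes that chose the cells are given as a description. Isg15, a ubiquitin-like protein that is attached to other proteins, had a UMI in 176 of 181 day 11 members and 105 of 107 steady-state members, against 15.2% and 25.8% of the low cells. Its level was 738 CPM in day 11 members against 23.9 CPM in day 11 low cells, and 255 CPM in steady-state members against 35.6 CPM in steady-state low cells. Ifit3, of the family that binds foreign RNA ends, stood at 487 against 6.20 CPM at day 11 and at 238 against 13.4 CPM at steady state. Irf7, the transcription factor that amplifies type I interferon production, stood at 433 against 37.7 CPM at day 11 and at 157 against 33.0 CPM at steady state. Each of these genes was higher in day 11 members than in steady-state members.

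Ifit1 stood at 265 against 2.85 CPM at day 11 and at 95.6 against 3.50 CPM at steady state. Rsad2, which encodes the antiviral enzyme viperin, stood at 254 against 3.29 CPM and at 111 against 5.25 CPM in the same order. Cxcl10, a chemokine that draws T cells, stood at 447 against 23.2 CPM at day 11 and at 149 against 46.2 CPM at steady state. In members the other 4 genes, Ifit2, Usp18, Oasl1 and Cmpk2, stood between 84.9 and 207 CPM at day 11 and between 29.0 and 89.8 CPM at steady state. In low cells they stood between 2.27 and 10.5 CPM and between 1.51 and 12.8 CPM. At steady state 46.8% of the Rsad2 UMIs lay in 2 of the 107 members.

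Levels of the 10 genes on both sides of the rule are given as a description, since the same genes chose the cells. Cells just inside it, with 6 genes, had a median of 1107 CPM of the 10 genes together in 60 day 11 cells and 626 CPM in 51 steady-state cells. Cells just outside it, with 5 genes, had 794 CPM (107 cells) and 506 CPM (89 cells). The antiviral effector genes outside the rule, described below, showed a small step there as well. At day 11 they summed to 4153 CPM with 5 genes and 4611 CPM with 6. At steady state they summed to 4078 and 4367 CPM. All day 11 members ran between 316 and 25817 CPM with a median of 2615 CPM, and all steady-state members between 182 and 15320.3 CPM with a median of 866 CPM. A steady-state cell could thus enter at a lower level than a day 11 cell.

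The promoters of several of these genes carry the letters of an ISRE, and they are shown because both the genes that chose the cells and those found beside them share that word. The stretches come from RefSeq promoter windows of 300 bases on GRCm38.p6, printed 5′ to 3′ on the strand of the gene. Capitals mark every GAAANNGAAA (the ISRE letters searched), or its reverse complement TTTCNNTTTC, and runs longer than 10 bases are overlapping matches. Ifit1 is read at chr19:34640760-34640819 (plus strand), Ifit3 at chr19:34583348-34583407 (plus), Ifit3b at chr19:34607744-34607803 (plus), Isg15 at chr4:156200862-156200921 (minus), Rsad2 at chr12:26456538-26456597 (minus) and Cxcl10 at chr5:92349068-92349127 (minus). Gbp2 is read at chr3:142620579-142620638 (plus), Irgm1 at chr11:48871416-48871475 (minus), Stat2 at chr10:128270251-128270310 (plus) and Mnda at chr1:173913049-173913108 (minus).
Ifit1: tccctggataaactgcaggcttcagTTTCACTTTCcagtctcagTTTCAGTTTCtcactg
Ifit3: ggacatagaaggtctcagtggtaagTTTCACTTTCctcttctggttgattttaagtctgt
Ifit3b: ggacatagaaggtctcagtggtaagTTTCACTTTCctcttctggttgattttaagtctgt
Isg15: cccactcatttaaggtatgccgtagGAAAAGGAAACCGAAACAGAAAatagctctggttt
Rsad2: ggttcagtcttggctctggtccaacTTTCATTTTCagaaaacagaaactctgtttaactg
Cxcl10: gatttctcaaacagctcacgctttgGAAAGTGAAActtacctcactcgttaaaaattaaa
Gbp2: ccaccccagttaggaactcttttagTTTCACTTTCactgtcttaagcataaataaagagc
Irgm1: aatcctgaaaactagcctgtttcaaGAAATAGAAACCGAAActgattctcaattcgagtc
Stat2: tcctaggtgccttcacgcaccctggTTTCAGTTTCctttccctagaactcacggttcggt
Mnda: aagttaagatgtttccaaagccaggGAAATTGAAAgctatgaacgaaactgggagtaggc

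Of the 10 genes that chose the cells, 9 matched a window and 5 of these (55.6%) held the ISRE letters on either strand. Of 27025 genes with a window, 1079 (3.99%) did. The stretches of Ifit3 and its near copy Ifit3b were the same in 60 of 60 bases, and Isg15 held 3 overlapping matches. The GAS letters TTCNNNGAA stood in the windows of 1 of the 9 genes (11.1%) and of 2582 of all genes (9.55%). A match is a description and not a bound site, and the absence of one (Irf7 in this window) says only that these letters are not there.

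Genes outside the 10 were then compared between members and low cells. A gene entered when the mean of its CPM in both groups was at least 25, and it was called when it differed at least 2-fold. At day 11, 124 of 4288 genes were called higher in members (2.89%) and 3 were called lower (0.07%). At steady state, 39 of 4434 genes were higher (0.88%) and 2 were lower (0.0451%). The median log2 ratio of all genes was 0.01 and 0.00. Against low cells matched to the members in depth, 123 genes were higher at day 11 and 43 at steady state. After thinning, with 62 and 12 members, the counts were 242 and 342. Of the 4080 genes that entered in both libraries, 34 were higher in both, which is 31.5% of the 108 higher at day 11 and 91.9% of the 37 higher at steady state. The 34 genes were read in separate libraries. Of them, 26 are in the fixed lists of interferon and other response genes, which were drawn up with earlier results known. Cell type marker lists were not part of this count. Of the 27 that matched a promoter window, 15 (55.6%) held the ISRE letters and 1 (3.70%) the GAS letters.

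Antiviral effectors outside the rule, proteins that block steps of viral replication, formed the first group. At day 11 all 18 that entered were at least 2-fold higher in members, with a median log2 ratio of 2.08. At steady state 7 of 16 were, with a median of 0.90, and none was lower in either library. The steady-state median was 1.96 among the 12 members left after thinning. Over the 21 genes of this list found in the files, the lowest, median and highest day 11 member had 1351, 6145 and 27682 CPM, against 0, 1598 and 12416 CPM in day 11 low cells. The corresponding steady-state values were 2056, 4763 and 15509 CPM in members and 165, 2995 and 13215 CPM in low cells. The groups overlapped in both libraries, with 79.0% of the day 11 members and 41.1% of the steady-state members above the level that 90% of the low cells did not exceed.

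**Figure D2:**
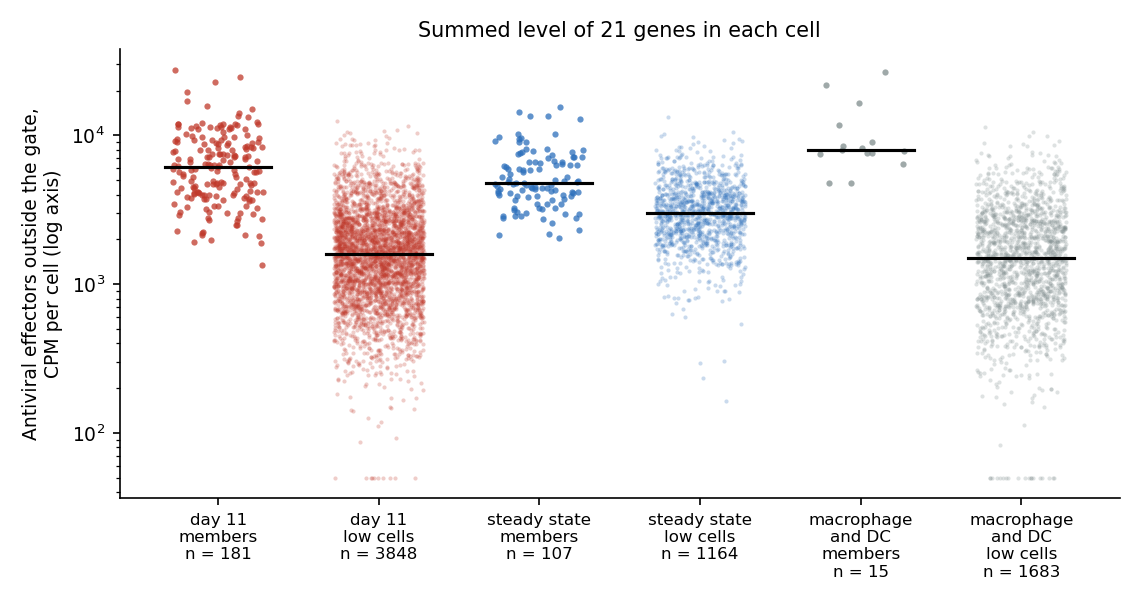
Summed level of 21 antiviral effector genes outside the rule, in CPM per cell on a log axis, with 1 point per cell and a black bar at each group's median; cells with none of these UMIs are drawn along the bottom. The medians are 6145 CPM in day 11 members and 1598 CPM in day 11 low cells, and 4763 and 2995 CPM in the steady-state members and low cells.

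Ifit3b, a near copy of Ifit3 whose reads cannot be told apart from it with certainty, stood at 113 CPM in day 11 members and 1.66 CPM in day 11 low cells, a ratio of 68.0 (50.9 to 92.1). In the steady-state library it stood at 58.9 CPM in members and 3.74 CPM in low cells, a ratio of 15.8 (11.2 to 22.5). Oasl2, of the family of 2′-5′-oligoadenylate synthetases that sense double-stranded RNA, was 5.89-fold higher at day 11 (224 against 38.0 CPM) and 2.48-fold at steady state (162 against 65.3 CPM). Mx1, of a family of dynamin-like GTPases, stood at 52.1 against 3.61 CPM at day 11 and at 25.9 against 7.16 CPM at steady state. Its steady-state mean was below the entry level, so it was called at day 11 alone.

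Some effectors were abundant in all cells and differed less. Ifitm3, a membrane protein that stops virus entry, stood at 2901 CPM in day 11 members against 1028 CPM in day 11 low cells (2.82-fold). At steady state it stood at 2759 CPM in members and 2032 CPM in low cells (1.36-fold). Bst2, which tethers budding virus to the cell, was 2.18-fold higher at day 11 and 1.39-fold at steady state. Steady-state low cells held more of these transcripts than day 11 low cells did.

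Sensors of nucleic acids came second. At day 11 5 of 8 that entered were called higher in members (median log2 ratio 2.29) and at steady state 5 of 9 (median 1.16). Zbp1, a sensor of Z-form nucleic acid, stood at 284 against 37.0 CPM at day 11, a ratio of 7.69 (7.0 to 8.44), and at 126 against 50.2 CPM at steady state, a ratio of 2.51 (2.17 to 2.89). The RNA helicase sensors Ddx58 (RIG-I), Ifih1 (MDA5) and Dhx58 (LGP2) were 4.72-, 5.10- and 5.33-fold higher at day 11 and 2.28-, 2.28- and 2.24-fold at steady state.

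Adaptors and other sensors differed less or were sparse. Tmem173 (STING), the adaptor that acts after cGAS, stood at 66.4 against 57.2 CPM at day 11 and at 57.6 against 47.7 CPM at steady state. Mavs, the adaptor of the RNA helicases, stood at 16.8 against 15.6 CPM at day 11 and at 17.0 against 18.1 CPM at steady state, and Tlr7 at 50.0 against 43.0 CPM and at 51.4 against 50.4 CPM. Mb21d1 (cGAS) stood at 20.5 against 10.1 CPM at day 11 and at 19.2 against 16.9 CPM at steady state, below the entry level in both, with ratios of 2.04 (1.48 to 2.74) and 1.14 (0.801 to 1.59).

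Of the interferon receptors and signalling genes, 15 entered in each library and 2 were called higher in each, among them Stat2, a transcription factor of the type I response. Stat2 stood at 49.2 CPM in day 11 members and 12.1 CPM in day 11 low cells, a ratio of 4.08 (3.30 to 5.01). In steady-state cells it stood at 42.4 CPM in members and 19.2 CPM in low cells, a ratio of 2.21 (1.73 to 2.82). Ifnar1, a chain of the type I interferon receptor, had a ratio of 1.13 (0.942 to 1.34) at day 11 and 0.888 (0.713 to 1.10) at steady state.

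The other receptor chains gave ratios of 0.976 and 0.977 for Ifnar2, 0.827 and 0.873 for Ifngr1 and 0.935 and 0.981 for Ifngr2 (day 11 and steady state). None of the 4 receptor genes differed 2-fold. Irf9, the DNA-binding part of the complex on the ISRE, was 1.34-fold higher at day 11 and 1.09-fold at steady state. Irf3, which is activated without a change in its RNA, had ratios of 0.979 and 0.975. Irf1, induced chiefly by interferon-gamma, was 1.85-fold and 1.19-fold higher. No member of any library held a UMI of the 8 interferon genes searched (Ifnb1, Ifna1, Ifna2, Ifna4, Ifna5, Ifng, Ifnl2 and Ifnl3), so a source of interferon was not detectable in the members at this depth.

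Guanylate-binding proteins (GBPs) and immunity-related GTPases (IRGs), which attack the membranes around intracellular microbes, showed the largest summed ratio of the fixed lists of interferon genes outside the rule at day 11. All 7 that entered at day 11 were called higher (median log2 ratio 2.39), and 4 of 7 at steady state (median 1.45). Their summed level was 915 CPM in day 11 members and 154 CPM in day 11 low cells. It was 600.2 CPM in steady-state members and 255 CPM in steady-state low cells. Of the 10 list genes with a promoter window, 9 (90%) held the ISRE letters and 6 (60%) the GAS letters. The GAS letters also stood in the windows of 7 of 17 antiviral effectors (41.2%) and 6 of 17 receptor and signalling genes (35.3%), against the 9.55% of all genes given above.

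Ifi47 stood at 280 CPM in day 11 members against 27.0 CPM in low cells (10.4-fold), and at 122 against 39.9 CPM at steady state (3.06-fold). Iigp1 stood at 86.1 against 5.65 CPM at day 11 (15.2-fold) and at 63.4 against 18.2 CPM at steady state (3.48-fold). Irgm1, which guards the cell's own membranes against these GTPases, was 4.76-fold and 3.0-fold higher, and Gbp2 was 6.22-fold and 2.73-fold higher. Both carry the letters shown above.

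The p200 family, DNA-binding proteins of chromosome 1 that include sensors of DNA, had 8 of 8 genes called higher at day 11 (median log2 ratio 2.61) and 4 of 7 at steady state (median 1.16). Mnda (Ifi211 in the GENCODE annotation) stood at 390 against 38.0 CPM at day 11 and at 200 against 55.8 CPM at steady state. Pyhin1 (Ifi209 there) was 6.81-fold and 2.51-fold higher, and Pydc4 (Ifi213) 10.6-fold and 3.13-fold. These genes are close copies of each other, and how the reads were split among them is uncertain.

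Smaller families were higher as well. Of the Schlafen genes 4 of 4 were called higher at day 11 and 2 of 3 at steady state, among them Slfn5, which was 6.67-fold and 2.72-fold higher. Of the PARP genes with Dtx3l, ADP-ribosylating enzymes induced by interferon, 5 of 5 and 2 of 4 were called higher. Of the Ly6 genes, small surface proteins of which several are induced by interferon, 3 of 3 and 1 of 2 were called higher. Of the enzymes that attach ISG15, 2 of 4 were called higher at day 11 and 0 of 3 at steady state. Their largest ratio was that of Herc6, the ligase of this step in mice, at 5.97 and 1.97.

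**Figure D3:**
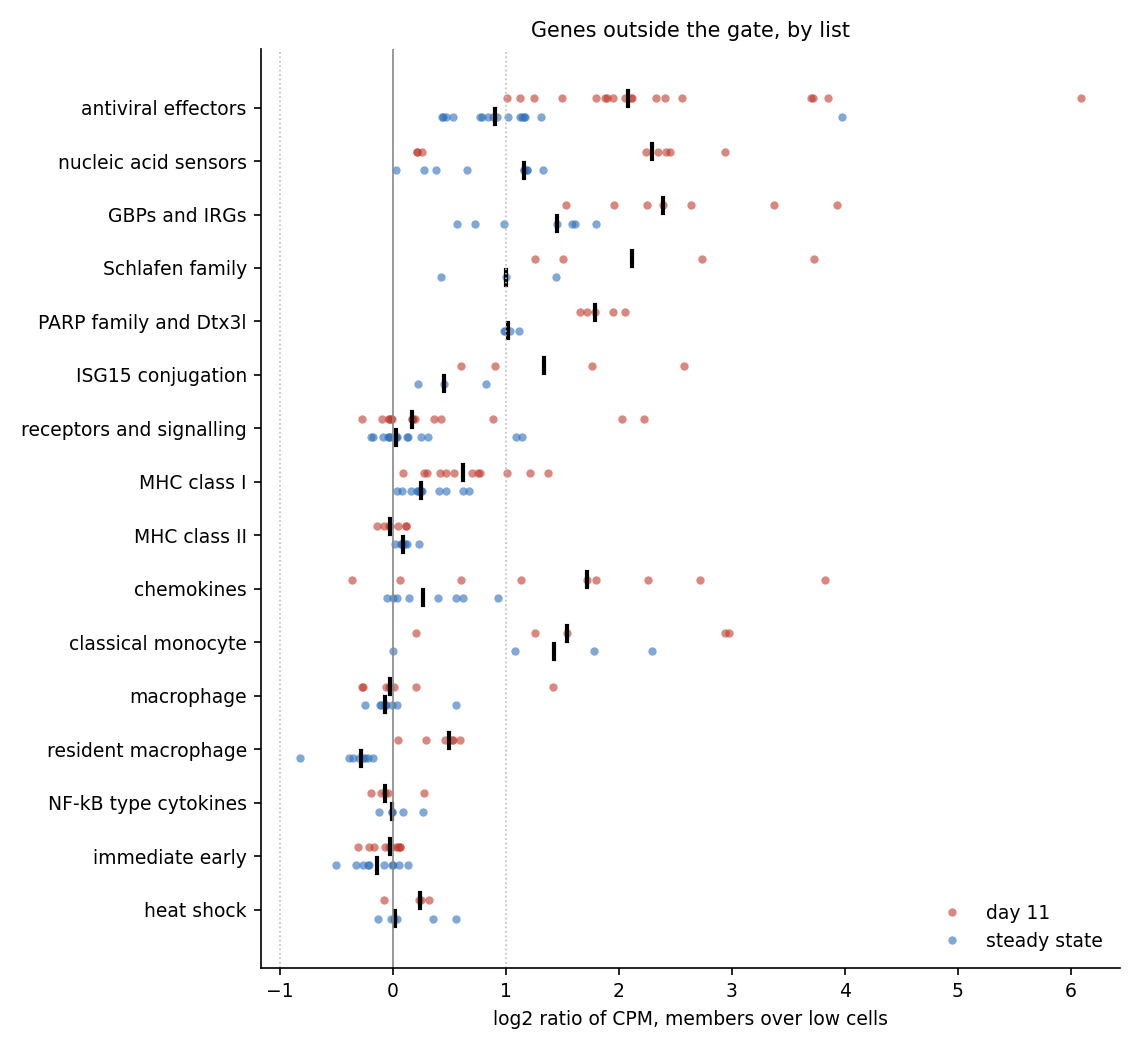
Log2 ratio of members over low cells for the genes of each list with a mean CPM of at least 25, at day 11 and at steady state; each dot is 1 gene, black bars are medians and dotted lines mark 2-fold. The antiviral effectors have medians of 2.08 at day 11 and 0.90 at steady state, while MHC class II genes have medians of -0.02 and 0.10.

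Antigen presentation genes differed less than the antiviral effectors, class I more than class II. All 12 MHC class I and immunoproteasome genes that entered had a ratio above 1 in both libraries. At steady state 0 of 12 were called higher (median log2 ratio 0.25). At day 11, 3 of 12 were called higher (median 0.62), where 2.89% of all genes were. The 3 were Tap1, the peptide transporter (164 against 63.4 CPM, 2.59-fold), Psmb9 (277 against 138 CPM, 2.01-fold, and 1.94-fold without the 2 members with most of its UMIs) and H2-T22 (150 against 64.5 CPM, 2.33-fold). B2m, the shared light chain of class I molecules, stood at 5946 against 4921 CPM at day 11 and at 5365 against 5068 CPM at steady state. MHC class II genes had medians of -0.02 and 0.10 with none of 7 called, and H2-Aa was 1.03-fold and 1.05-fold higher. Per cell, the median summed class II level was 42908 CPM in day 11 members and 34278 CPM in day 11 low cells. At steady state it was 54520 CPM in members and 47424 CPM in low cells.

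Chemokines differed at day 11 and less at steady state. Of 9 chemokine and death ligand genes that entered at day 11, 6 were called higher, and 0 of 8 at steady state. Ccl12, a ligand of CCR2 that draws monocytes in mice, stood at 1016 CPM in day 11 members and 154 CPM in day 11 low cells, a ratio of 6.60 (6.29 to 6.92). At steady state it stood at 472 CPM in members and 248 CPM in low cells, a ratio of 1.90 (1.77 to 2.04). The related Ccl2 and Ccl7 were 3.30-fold and 3.49-fold higher at day 11, and 1.54-fold and 1.47-fold at steady state. Without the 2 members with most UMIs of the gene, the steady-state ratios of Ccl2 and Ccl7 were 1.18 and 0.867.

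Other chemokines rested on few cells. Cxcl9, which is induced chiefly by interferon-gamma, stood at 89.4 against 6.32 CPM at day 11 and had a UMI in 18 of 181 members, with 44.5% of its member UMIs in 2 cells. Of the low cells 1.59% had a Cxcl9 UMI, and 4 of 12 day 11 cells with endothelial genes did. Ccl5 stood at 232 against 48.4 CPM at day 11, and 1 cell held 248 of its 565 member UMIs. Without the 2 cells with most UMIs its ratio was 1.88, and that of Cxcl9 was 7.93. Of the genes listed as typical of interferon-gamma, 2 of 4 were called higher at day 11 and 0 of 3 at steady state. Cxcl16, which holds T cells in tissue, was lower in day 11 members (502 against 645 CPM).

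Genes of the NF-kB response, the other arm of innate signalling, gave no called gene among 5 that entered in either library, with medians of -0.07 at day 11 and 0.00 at steady state. Tnf stood at 54.1 against 44.7 CPM at day 11 and at 67.0 against 67.1 CPM at steady state, and Il1b at 207 against 218 CPM and at 100.5 against 101 CPM. Genes that respond to tissue digestion gave no called gene either. None of the heat shock genes (4 entered at day 11 and 6 at steady state) or of the 10 immediate early genes was called. Their medians were 0.24 and -0.03 at day 11, and 0.02 and -0.14 at steady state.

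Among the identity genes, monocyte markers differed. Fcgr1 and Ly6c2 are counted here and also in the interferon-gamma and Ly6 lists above, so these counts are not separate from the interferon program. Of the macrophage markers 1 of 8 was called at day 11, Fcgr1, which encodes CD64, a protein used in the sort. It stood at 575 against 215 CPM at day 11 (2.68-fold) and at 292 against 198 CPM at steady state (1.48-fold). Of the classical monocyte markers 4 of 5 were called higher at day 11 and 3 of 4 at steady state. Their summed level was 1158 CPM in day 11 members and 395 CPM in day 11 low cells, and 603 CPM in steady-state members and 297 CPM in steady-state low cells.

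Plac8 stood at 636 CPM in day 11 members against 80.8 CPM in low cells, and at 293 against 85.4 CPM at steady state. Ly6c2, which encodes the monocyte surface protein Ly6C, stood at 122 against 15.9 CPM at day 11 and at 75.5 against 15.4 CPM at steady state. It was found in few members: at equal depth 9.44% of day 11 members and 2.07% of day 11 low cells had a Ly6c2 UMI, and 11.2% and 2.32% at steady state. At full depth the shares were 16.0% against 4.18% at day 11 and 25.2% against 6.36% at steady state. Of cells with endothelial genes, 1 of 12 at day 11 (median 4635 UMIs) and 2 of 12 at steady state (median 6014 UMIs) had one. The intervals of these shares were 0.211 to 38.5% and 2.09 to 48.4%, so the cells are too few to set a background level. Ccr2, the receptor that brings monocytes into tissue, differed little in level, at 281 against 244 CPM at day 11 and 169 against 169 CPM at steady state.

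Cells with a UMI of 3 or more of the 8 monocyte genes made up 21.5% of the day 11 members against 5.46% of the day 11 low cells, and 22.4% of the steady-state members against 3.69% of the steady-state low cells. When such cells were left out of both groups, 142 day 11 members and 83 steady-state members remained. The summed antiviral effectors were then 2.98-fold higher in members at day 11 (3.10-fold with all cells) and 1.49-fold at steady state (1.52-fold with all cells). Ccl12 was then 6.03-fold and 2.16-fold higher, and Fcgr1 2.46-fold and 1.54-fold. Ms4a4c was 5.94-fold higher at day 11 (238 against 40.2 CPM), against 8.59-fold with all cells, and 3.02-fold at steady state. Ccl5 at steady state stood at 6.41 against 24.2 CPM, a ratio of 0.265, against 1.10 with all cells. Ccl5 at day 11 stood at 227 against 46.4 CPM, a ratio of 4.89, and at 232 against 48.4 CPM with all cells. The ratios of the antiviral effectors, Ccl12 and Fcgr1 were thus close to those with all cells, as was that of Ccl5 at day 11. Those of Ms4a4c at day 11 and Ccl5 at steady state were not.

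Markers of other cell types that the sort could hold were low in members, and their part in the results was not tested. The T and NK cell genes summed to 9.02 CPM in day 11 members and 9.08 CPM in low cells, and to 2.23 and 9.31 CPM at steady state, with Nkg7 and Ncr1 at 0 UMIs in the members of both. The B cell genes summed to 45.1 against 41.0 CPM at day 11 and 42.4 against 65.5 CPM at steady state, and the neutrophil genes to 45.5 against 45.5 CPM and 25.9 against 20.9 CPM. The conventional DC lists summed to 379 against 343 CPM (cDC1) and 194 against 138 CPM (cDC2) at day 11, and to 387 against 370.2 CPM and 148 against 158 CPM at steady state. Endothelial genes summed to 57.0 against 63.4 CPM at day 11 and to 52.7 against 104 CPM at steady state. The plasmacytoid DC gene Siglech stood at 1.64 against 1.51 CPM at day 11 and 13.4 against 11.4 CPM at steady state (4 and 30 UMIs in members). Bst2, described above as an effector, carried most of that list's summed level (705 against 326 CPM at day 11). Cardiomyocyte genes summed to 76.3 against 43.3 CPM at day 11 and 109 against 117 CPM at steady state, and fibroblast genes to 249 against 346 CPM and 207 against 265 CPM.

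Genes of resident cardiac macrophages differed in opposite directions in the 2 libraries, with none of them called. Folr2, a folate receptor that marks resident macrophages, stood at 347 CPM in day 11 members and 240.0 CPM in day 11 low cells (ratio 1.45; 1.34 to 1.55). Its steady-state level was 952 CPM in members and 1140.4 CPM in low cells (ratio 0.834; 0.797 to 0.873). All 6 resident genes that entered at day 11 had a ratio above 1, and all 8 at steady state had one below 1. The summed level was 1362 against 1023 CPM at day 11 and 3659 against 4414 CPM at steady state. This difference between the libraries was not tested, because each is 1 library.

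The resident markers Timd4 and Lyve1 and the receptor Ccr2 divided the members. At day 11, 48.6% of members had a Ccr2 UMI with neither Timd4 nor Lyve1 (42.1% of low cells), 8.29% had Timd4 or Lyve1 with no Ccr2 (7.85%), 18.8% had both kinds (5.82%) and 24.3% had none of the 3 (44.2%). At steady state these shares were 10.3% (12.9% of low cells), 25.2% (45.3%), 57.9% (27.6%) and 6.54% (14.3%). Members with both kinds were the commonest class at steady state. Members were deeper, and deeper cells show more genes. Of the 12 cells with endothelial genes per library, 1 at day 11 and 3 at steady state had a Ccr2 UMI, and 0 and 1 a Timd4 UMI. At equal depth 45.0% of day 11 members and 33.7% of day 11 low cells had a Ccr2 UMI, against 41.1% and 24.5% at steady state. At equal depth Timd4 had a UMI in 19.6% of steady-state members and 26.7% of steady-state low cells, and in 3.33% and 2.97% at day 11. Members thus included cells with a UMI of a resident marker and cells with a Ccr2 UMI. The shares of cells with both kinds or neither were read at full depth only. A UMI of a marker does not by itself assign a member to a population.

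Genes of infarct macrophages leaned lower in day 11 members. Of 8 that entered 1 was called, Gpnmb, a lysosomal glycoprotein of lipid-laden macrophages, at 68.1 CPM in members against 200.4 CPM in low cells (ratio 0.340; 0.289 to 0.396). Trem2, a lipid receptor, stood at 698 against 914 CPM, and Fabp5, a fatty acid carrier, at 230 against 402 CPM. At steady state 2 of 3 infarct genes were called higher in members, Spp1 and Fabp5, but 78.3% of 460 Spp1 UMIs and 82.7% of 469 Fabp5 UMIs lay in 2 of the 107 members. Without the 2 cells with most UMIs the steady-state ratios were 0.815 for Spp1 and 1.16 for Fabp5.

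Among genes named for the largest ratio in both libraries were Ms4a4c, a membrane protein of the CD20 family (458 against 53.2 CPM at day 11 and 98.2 against 33.3 CPM at steady state), besides Ifit3b, Ly6c2, Mnda, Iigp1, Plac8, Pydc4, Ifi47, Irgm1, Gbp2, Slfn5, Zbp1, Pyhin1, Oasl2 and Ifih1. Mmp12, an elastase of macrophages, was the single gene lower in both, at 49.2 against 102 CPM at day 11 and 29.5 against 61.3 CPM at steady state. After thinning, with 12 members at steady state, its ratio there was 1.34. Without the 2 members with most UMIs of each gene, the ratios of the 15 higher genes lay between 4.42 and 61.9 at day 11 and between 2.09 and 12.6 at steady state.

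The antiviral effectors followed the number of genes of the rule found in a cell. At day 11 the summed level was 1551 CPM in cells with none of the 10 genes, 3064 CPM with 3, 4611 CPM with 6 and 8837 CPM with all 10 (34 cells). At steady state it was 3056 CPM with none, 3614 CPM with 3, 4367 CPM with 6 and 7226 CPM with all 10 (6 cells, too few to read closely). Day 11 cells with none of the genes stood lower than steady-state cells with none, and those with all 10 stood higher. Median depth moved with the count as well, at 7124 UMIs in day 11 cells with none, 13188 UMIs with 6 and 11077 UMIs with all 10.

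**Figure D4:**
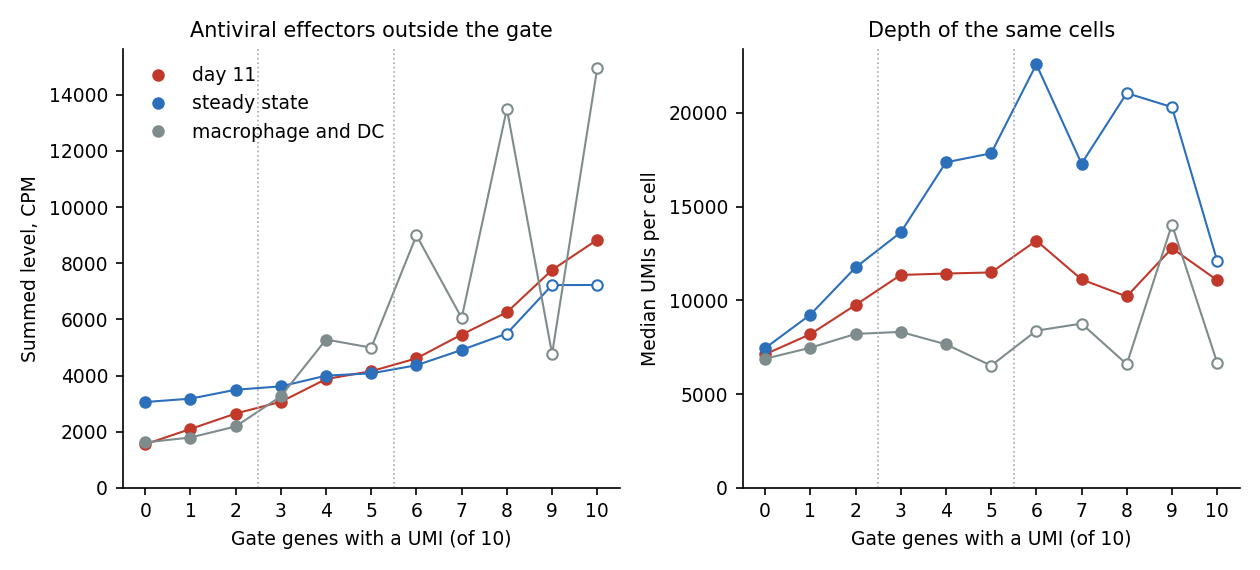
Summed level of the antiviral effectors outside the rule, in CPM, by the number of the 10 genes of the rule with a UMI in a cell, for the 3 libraries (left), with the median UMIs of the same cells (right); open points are groups under 20 cells and dotted lines bound low cells and members. The day 11 values climb to 8837 CPM in cells with all 10 genes, and the steady-state values to 7226 CPM.

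Other genes differed with that number to different degrees. Ccl12 at day 11 stood at 154 CPM with 0 to 2 genes, 312 CPM with 3 to 5, 386 CPM with 6 or 7 and 1751 CPM with 8 to 10. Plac8 at day 11 stood at 80.8, 237, 432 and 875 CPM over the same steps, and Fcgr1 at 215, 292, 419 and 757 CPM. The 8 macrophage markers together stayed between 20672 and 21299 CPM. The 10 cell cycle genes summed to 376, 478, 690.0 and 247 CPM at day 11, highest with 6 or 7 genes and lowest with 8 to 10. Only 10 of the 181 day 11 members had a UMI of 5 or more of them (5.52%, against 4.11% of low cells). The values in members may thus rest on few cells. At steady state 18.7% of members and 8.33% of low cells had 5 or more. These shares were read at full depth, and members were deeper.

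Day 11 members were then set against steady-state members, with the same ratio among low cells beside it. Low cells were chosen for few of the 10 genes, by a rule that depends on depth. For interferon genes their ratio is therefore not a general difference between the libraries. Over all cells the 10 genes stood at 359 CPM at day 11 and 344 CPM at steady state. Of 4395 genes, 69 were at least 2-fold higher in day 11 members (1.57%) and 72 at least 2-fold lower (1.64%). The 7 interferon lists drawn as red circles in the plot of both ratios were higher in day 11 members and lower in day 11 low cells. The receptors and signalling genes were higher in both, with summed ratios of 1.17 between members and 1.06 between low cells. The antiviral effectors had a summed ratio of 1.23 (1.20 to 1.26) between members and 0.605 (0.597 to 0.612) between low cells. The GBPs and IRGs had 1.52 and 0.605, the sensors 1.58 and 0.782, and the p200 family 1.71 and 0.736. The 10 genes of the rule had 2.57 and 0.729, as a description.

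**Figure D5:**
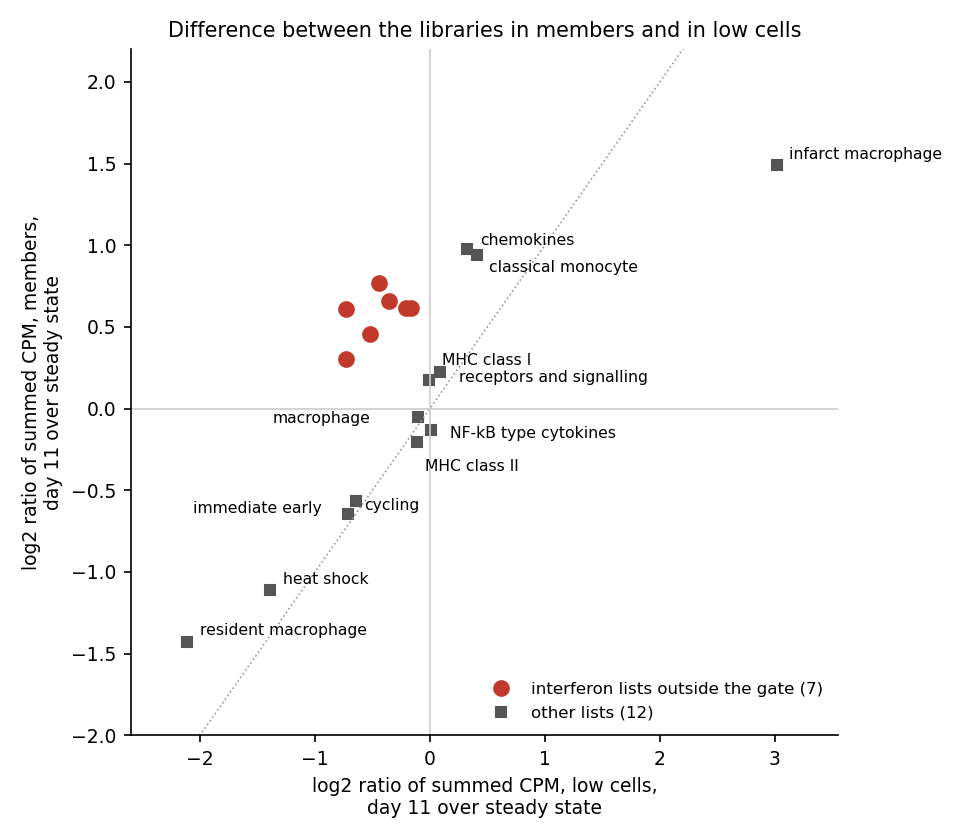
Log2 ratio of the summed CPM at day 11 over steady state, in low cells (horizontal) and in members (vertical), with 1 point per list; red circles are 7 interferon lists outside the rule and grey squares 12 other lists, and the dotted line marks equal ratios. These 7 lists lie left of 0 and above 0, such as the antiviral effectors with ratios of 0.605 in low cells and 1.23 in members, while the resident macrophage list lies low on both axes (0.232 and 0.372).

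Several single genes were higher between members and lower between low cells. Zbp1 was 2.26-fold higher (1.96 to 2.60) in day 11 members than in steady-state members, and its ratio between low cells was 0.736. Ccl12 had ratios of 2.15 between members and 0.620 between low cells, and Ifi47 of 2.29 and 0.677. Ifitm3 had 1.05 between members and 0.506 between low cells. Fcgr1 did not turn, with 1.97 between members and 1.09 between low cells.

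Members of the 2 libraries differed in how many genes of the rule they held, so their levels were also set side by side at a like number. Among members with 6 or 7 genes (96 at day 11 and 81 at steady state), the antiviral effectors summed to 4890.2 CPM at day 11 and 4555 CPM at steady state, and the GBPs and IRGs to 507 and 468 CPM. Ccl12 stood at 386 CPM at day 11 and 360 CPM at steady state there, a smaller difference than over all members. Among members with 8 to 10 genes (85 and 26), Ccl12 stood at 1751 CPM at day 11 and 854 CPM at steady state, and the antiviral effectors at 7614 and 6455 CPM. Zbp1 stood at 183 CPM at day 11 and 101 CPM at steady state with 6 or 7 genes, and at 403 and 210.1 CPM with 8 to 10. Day 11 members were shallower in both ranges, with a median of 12481 and 11183 UMIs, against 20728 and 20285 UMIs at steady state. A shallower cell needs a higher level to show as many genes, so a like number is not a like level. With exactly 6 genes, cells had a median of 1107 CPM of the 10 genes at day 11 and 626 CPM at steady state.

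The genes with the largest day 11 excess over steady-state members were mostly those that also separate the low cells of the libraries. Saa3, an acute-phase protein, had 210 UMIs in day 11 members, 77.6% of them in 2 cells, and 0 UMIs in steady-state members. Arg1, the arginine-degrading enzyme of wound macrophages, was 34.5-fold higher between members and 48.3-fold between low cells. Fn1 (fibronectin) was 6.47-fold and 13.2-fold higher, Mmp14, a collagenase at the cell surface, 9.38-fold and 10.5-fold, and Clec4d, a lectin receptor, 7.07-fold and 11.1-fold. Rgs1 was 5.78-fold and 4.33-fold higher, and Il1rn, the interleukin-1 receptor antagonist, 7.41-fold and 3.99-fold.

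A few were higher between members by more than between low cells. Ly6a, the interferon-induced surface protein Sca-1, stood at 113 CPM in day 11 members and 15.2 CPM in steady-state members (7.43-fold; 5.19 to 10.9), and its ratio between low cells was 1.47. Ifitm1 was 48.0-fold higher between members (18.5 to 178) and 10.1-fold between low cells, from 209 UMIs in day 11 members and 4 in steady-state members. Ccl5 had ratios of 7.98 and 1.84, with 61.1% of its day 11 UMIs in 2 members. Isg20, an exonuclease against viral RNA, had ratios of 3.60 and 0.852, and Ms4a4c of 4.66 and 1.60.

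The genes lower in day 11 members included markers of resident macrophages. Timd4 was 4.94-fold lower between members and 10.0-fold between low cells, and Lyve1 4.76-fold and 8.86-fold. Retnla was 7.21-fold and 20.9-fold lower, but 88.4% of its day 11 member UMIs lay in 2 cells, and without the 2 cells with most UMIs in each library it stood at 14.2 CPM in day 11 members and 546 CPM in steady-state members. Mgl2 was 3.84-fold and 4.88-fold lower, Colec12 4.16-fold and 8.18-fold, Pla2g2d 6.06-fold and 7.42-fold, and Fgfr1 4.68-fold and 6.49-fold. The scavenger receptor Cd36 (3.65-fold and 3.63-fold) and Adam33 (4.08-fold and 3.81-fold) were lower by nearly the same amount in both. Cnot3 was 5.87-fold and 2.04-fold lower, with 67.3% of its steady-state member UMIs in 2 cells. The resident list as a whole had a summed ratio of 0.372 between members and 0.232 between low cells.

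The reporter transcripts bear on lineage, since tdTomato marks cells that had Cre activity. TdTomato had 20 UMIs in steady-state members, 8.93 CPM against 14.4 CPM in steady-state low cells (ratio 0.620; 0.370 to 0.987). At day 11 it had 3 UMIs in members, 1.23 CPM against 1.54 CPM in low cells (ratio 0.797; 0.159 to 2.46), which is too few to tell members from low cells. EYFP, which reports the Cx3cr1 locus, stood at 36.9 against 33.7 CPM at day 11 and at 50.9 against 46.7 CPM at steady state. Transcripts were sparse, so a cell without a reporter UMI is not thereby unlabelled.

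The 15 members of the macrophage and DC library gave the same interferon lists with few UMIs. There 401 of 3514 genes were called higher (11.4%) and 356 lower (10.1%), but 25 CPM is about 3 UMIs in these 15 cells, so single genes there rest on few molecules. All 18 antiviral effectors that entered were called higher, with a median log2 ratio of 3.02. The lowest, median and highest member had 4770.4, 7955 and 26560 CPM, against 0, 1507 and 11396 CPM in low cells of that library. Isg15 stood at 1949 against 20.2 CPM and Irf7 at 1183 against 11.5 CPM.

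Zbp1 stood at 691 against 24.2 CPM (28.6-fold; 22.2 to 36.5) in these cells. The MHC class II genes summed to 95050 CPM in members and 85982 CPM in low cells, and the macrophage markers to 4822 against 5979 CPM. Siglech and Ccr9 had 0 UMIs in the 15 cells, and Cd209a, a marker of a DC subset, stood at 766 against 579 CPM. The cell cycle genes summed to 33.3 against 570.2 CPM. Of the 188 Ccl5 UMIs in members, 183 lay in 1 cell, and Ly6a (583 against 9.25 CPM) had 75.7% of its UMIs in 2 cells.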

How the data were processed

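Single cells were captured with 10x Genomics 3' chemistry, and the deposited values are raw UMI counts per gene and cell in filtered matrices, made with Cell Ranger and STAR on mm10 per the submitters' processing notes. No version of either tool is given there. Cells with 500 or more detected genes and at most 10% mitochondrial UMIs were kept, which removed 24, 39 and 13 barcodes from the day 11, steady-state and macrophage and DC libraries. UMIs were summed over members and over low cells of each library and scaled to CPM. Ratios carry exact conditional binomial 95% intervals and shares Clopper-Pearson intervals, both for counting error only, and a PCR or library effect is outside them.

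A gene was called at a 2-fold difference with a mean CPM of both groups of at least 25. Where a group had 0 UMIs, 3 counts stood in for the call. No p-value was computed, since each group is 1 library. The 10 genes of the rule are left out of all counts of genes.

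The named genes are those of the lists and markers, the 10 genes of the rule, up to 15 genes in each direction with the largest smaller ratio in both macrophage libraries, and up to 10 in each direction between members of both libraries. Members, lists and rules were chosen with earlier results of these data known. Doublets were scored with Scrublet, whose automatic threshold marked 0, 6 and 2 cells, so the highest scores (0.8% per 1000 barcodes, 176, 26 and 25 cells) were removed as an alternative; 9, 1 and 0 of them were members. Names of 4 genes were matched through Ensembl identifiers. Promoter windows are those of RefSeq (GRCm38.p6). The scripts were tested on simulated counts. Python 3.11.15, numpy 2.4.6, scipy 1.17.1, pandas 2.3.3, scanpy 1.11.5 and matplotlib 3.10.9 were used. One gene of the lists counted here is not reported here by name.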

Additional observations from a re-analysis of the deposited data

Results flagged for a closer look

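For 3 genes the difference between members and low cells ran in opposite directions at day 11 and at steady state. That difference between the libraries was not tested, since each is 1 library. Fabp5, a fatty acid carrier, had a ratio of 0.572 at day 11 and 6.60 at steady state, a ratio of ratios of 0.0867. Its steady-state member UMIs lay to 82.7% in 2 cells, and without the 2 cells with most UMIs the ratios were 0.441 and 1.16. Spp1, which encodes osteopontin, had 0.700 and 3.67, a ratio of ratios of 0.191, with 78.3% of the steady-state UMIs in 2 cells and ratios of 0.360 and 0.815 without such cells. Retnla, a marker of alternatively activated macrophages, had 2.16 and 0.745, a ratio of ratios of 2.90, with 88.4% of the day 11 UMIs in 2 cells and ratios of 0.256 and 0.471 without them. Without those cells the ratios of Spp1 and Retnla were below 1 in both libraries, and those of Fabp5 were not. The cells were taken from the members only, while the low cells kept all of theirs. This lowers the ratios, so a shared direction below 1 is not read as a result.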

How the results depend on the processing

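No paired analysis was possible because each group has 1 library. The share of members in both macrophage libraries moved most with depth: it was 1.35% at day 11 and 0.679% at steady state after thinning, 6.16% and 11.1% with 5 genes asked for, and 2.59% and 3.17% with 7. In the macrophage and DC library it was 0.849%, and 0.627% after thinning, 1.19% with 5 genes and 0.509% with 7. The median log2 ratio of the antiviral effectors at day 11 was 1.80 with 5 genes, 2.31 with 7, 2.59 after thinning, 2.34 against low cells matched for depth and 2.28 with cells weighted equally; at steady state it was 1.96 after thinning. Of 438 list medians recomputed, 414 kept their sign and 0 of those past 2-fold lost it, and of 500 ratios of named genes 484 stayed at least 2-fold in the same direction. Counts of genes depended far more on the settings. At day 11 the count higher was 242 after thinning and 68 at 3-fold, and the count lower was 8 with 7 genes, 6 without the highest doublet scores, 5 with low cells of at most 1 gene, 16 with matched depth, 6 in cells with few monocyte genes, 6 with equal weights, 17 at 10 CPM, 0 at 3-fold and 48 after thinning. At steady state the counts higher and lower were 18 and 0 with 5 genes, 59 and 1 with 7, 342 and 180 after thinning, 62 and 1 with equal weights, 61 and 15 at 10 CPM, 19 and 1 at 50 CPM, and 11 and 0 at 3-fold. In the macrophage and DC library they were 920 and 748 at 10 CPM, 223 and 118 at 50 CPM and 204 and 112 at 3-fold, with 233 lower for 5 genes. Between day 11 and steady-state members they were 233 and 416 after thinning, 126 and 189 at 10 CPM, 40 and 39 at 50 CPM, and 29 and 19 at 3-fold. Thinning leaves 62 and 12 members, so its counts rest on few UMIs. Turned in direction were Mmp12 at steady state after thinning (1.34), Saa3 between members after thinning (0.817, with 3 counts in place of 0) and Ly6c2 at day 11 in cells with few monocyte genes (0.561), where the gene helped to choose the cells. The matched-depth and few-monocyte-gene settings were chosen after seeing the data. The cause of the other changes was not tested.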
